A study of Mus musculus with 20 samples.

Results

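Kruppel-like factors (KLFs) are transcription factors that bind GC-rich and CACCC-containing DNA through zinc fingers at the carboxyl end of the protein. The mRNA of 10 of them was followed along the renal microvasculature: Klf2, Klf3, Klf4, Klf5, Klf6, Klf7, Klf9, Klf10, Klf13 and Klf15. They were chosen by gene symbol, with earlier results of these data known, from the 34255 genes of the read count table, which lists 17 Klf symbols in all. All 10 had enough reads to be tested.

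All 20 libraries came from kidneys of healthy control WT male C57BL6/OlaHsd mice, 8 to 12 weeks old. A header line of the table also gives these control columns the entry 4 h, whose meaning is not stated. Post-capillary venules, peritubular capillaries, glomeruli and arterioles were cut out by laser microdissection (LMD), and whole kidney sections were the reference, with 4 biological replicates in each of the 5 groups. A library is named below by its group and the number in its column (93, 96, 98 or 100), and the capillary column of 96 also carries the unexplained letters WH. The segments were collected per mouse and each number recurs in all 5 groups, so libraries of 1 number were taken as 1 mouse, and fits with that number as a replicate block are given wherever they change a call. The groups are dissected structures and not sorted cells, so each holds endothelium together with the cells around it. All microdissected libraries were made with a low-input version of the kit and more PCR cycles than the whole kidney libraries. Preparation and anatomy therefore cannot be told apart in any comparison with whole kidney. Capillaries were also dissected from their own slide, under a fluorescent lectin stain, whereas the other compartments came from a hematoxylin-stained slide. Each comparison of capillaries with another compartment carries this difference too, and its part was not tested. Glomeruli and venules were sampled over a larger area than either arterioles or capillaries.

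In endothelium, laminar flow raises KLF2 and KLF4 through a kinase cascade of MEKK3, MEK5 and ERK5 and the MEF2 transcription factors, and the pair of factors is known for inducing vasodilator and anticoagulant genes and restraining inflammatory ones. KLF5, by contrast, is known as a growth-associated factor of epithelium and injured smooth muscle, and KLF6 as an injury-response gene. KLF9, KLF13 and KLF15 are linked to glucocorticoid and circadian control, KLF10 to TGF-β signalling, KLF3 to repression through the corepressor CtBP, and KLF7 to neurons and adipocytes.

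The start-site regions of the members are shown first because they are where such signals converge on the gene. RefSeq promoter windows of 300 bases (250 before and 50 after the annotated start, build GRCm38.p6) were at hand for 8 members: Klf2, Klf3, Klf4, Klf6, Klf7, Klf9, Klf13 and Klf15. The 3 printed here belong to the member that differed most between compartments (Klf2), the other member that differed across all 4 (Klf13) and the member whose level was the most even (Klf9). Each is written 5′ to 3′ on the gene's strand and stops before the first annotated transcript base. Capitals mark the MEF2 core CTANNNNTAG and the KLF-binding CACCC, or its reverse complement GGGTG.
Klf2, chr8:72318812-72319032, plus strand: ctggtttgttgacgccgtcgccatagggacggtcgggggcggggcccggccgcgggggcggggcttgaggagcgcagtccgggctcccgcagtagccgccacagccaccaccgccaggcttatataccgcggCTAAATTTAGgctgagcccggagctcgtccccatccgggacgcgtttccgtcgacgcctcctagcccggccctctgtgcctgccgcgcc
Klf13, chr7:63938916-63939165, minus strand: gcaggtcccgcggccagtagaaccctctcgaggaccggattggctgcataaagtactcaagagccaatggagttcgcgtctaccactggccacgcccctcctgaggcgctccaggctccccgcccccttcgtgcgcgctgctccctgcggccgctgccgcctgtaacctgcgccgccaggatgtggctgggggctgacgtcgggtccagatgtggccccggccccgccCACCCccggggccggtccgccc
Klf9, chr19:23140976-23141225, plus strand: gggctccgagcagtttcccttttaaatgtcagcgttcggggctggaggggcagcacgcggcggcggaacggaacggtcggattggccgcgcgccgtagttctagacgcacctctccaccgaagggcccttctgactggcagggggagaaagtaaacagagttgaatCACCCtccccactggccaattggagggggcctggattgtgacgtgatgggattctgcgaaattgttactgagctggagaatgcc

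Klf2 was the only one of the 8 windows with a MEF2 core, which began 118 bases before the RefSeq start, while 3.69% of all 32851 RefSeq promoter windows of this length held one. CACCC on either strand stood in 6 of the 8 windows against 57.5% of all windows, and the GC box GGGCGG, or its reverse complement CCGCCC, in 7 of the 8 against 35.7%. In Klf13 the CACCC shown overlaps a GC box. CCAAT, or its reverse complement ATTGG, stood in 4 of the 8 windows against 37.4% of all windows, and TATAAA, or its reverse complement TTTATA, in none of the 8 against 13.6%. The GC content of the 8 windows had a median of 70.7%, against 52.7% over all windows. These are matches of letters, and no measurement of binding was made.

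In the GENCODE M21 annotation of GRCm38, Klf2 lies at chr8:72319033-72321656, Klf4 at chr4:55527143-55532466, Klf5 at chr14:99298691-99315036, Klf6 at chr13:5861482-5870394, Klf10 at chr15:38291463-38300706 and Klf15 at chr6:90462576-90475238, none of them overlapping another annotated gene. Klf3 (chr5:64803388-64832901), Klf7 (chr1:64029447-64122282), Klf9 (chr19:23141226-23168134) and Klf13 (chr7:63886351-63938915) do overlap others. The partners of Klf3, Klf7 and Klf13 include genes on the opposite strand (Gm20033 for Klf3, Gm26649 and Gm13748 for Klf7, Gm27252 and E030018B13Rik for Klf13), and since the strand setting of the counting is not given, reads of such pairs cannot be told apart.

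Library totals ran from 4639090 to 12283098 counts. Levels are given as CPM, which are counts relative to the TMM-scaled library total and not divided by gene length, because the 3′ kit reads each transcript near its end. The 20 genes of a pan-endothelial list (Pecam1, Cdh5, Tie1 and others) together took 0.500% ± 0.039 of all counts in arterioles and 0.524% ± 0.043 in glomeruli (SD, n = 4). Their share of venule counts was 0.159% ± 0.036, of peritubular capillary counts 0.0826% ± 0.0152 and of whole kidney counts 0.0722% ± 0.0040. The capillary libraries thus held little more endothelial mRNA than whole kidney, with Pecam1 at 61.1 ± 27.6 CPM against 64.9 ± 9.07, and 1 to 2 of the 20 list genes at 0 in each. Their proximal tubule markers took 8.44% of counts (7.31% to 9.53%), against 5.17% in whole kidney (4.94% to 5.37%). Arterioles carried smooth muscle markers at 2.94% of counts (2.20% to 3.50%), against 0.0820% to 0.438% in the other compartments on average. Glomeruli carried podocyte markers at 1.12%, and venules erythrocyte markers at 3.33% (1.98% to 4.87%).

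Klf2, the flow-responsive factor, was the member that differed most from compartment to compartment. In arterioles 93, 96, 98 and 100 it stood at 353, 398, 521 and 207 CPM, and in the glomeruli of the same numbers at 132, 231, 133 and 145 CPM. The 4 venule libraries held 60.9, 81.6, 82.0 and 48.7 CPM and the 4 capillary libraries 14.5, 13.1, 5.0 and 2.15 CPM. Whole kidney held 29.1, 26.1, 26.1 and 19.6 CPM. Every arteriole, glomerular and venule library therefore lay above every whole kidney library, and every capillary library below, while arterioles and glomeruli overlapped through arterioles 100. Across the 4 compartments the difference passed the test (edgeR quasi-likelihood F test, adjusted p = 2.7e-05), a call that was kept without each of the 16 libraries in turn (adjusted p up to 0.000215).

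**Figure D1:**
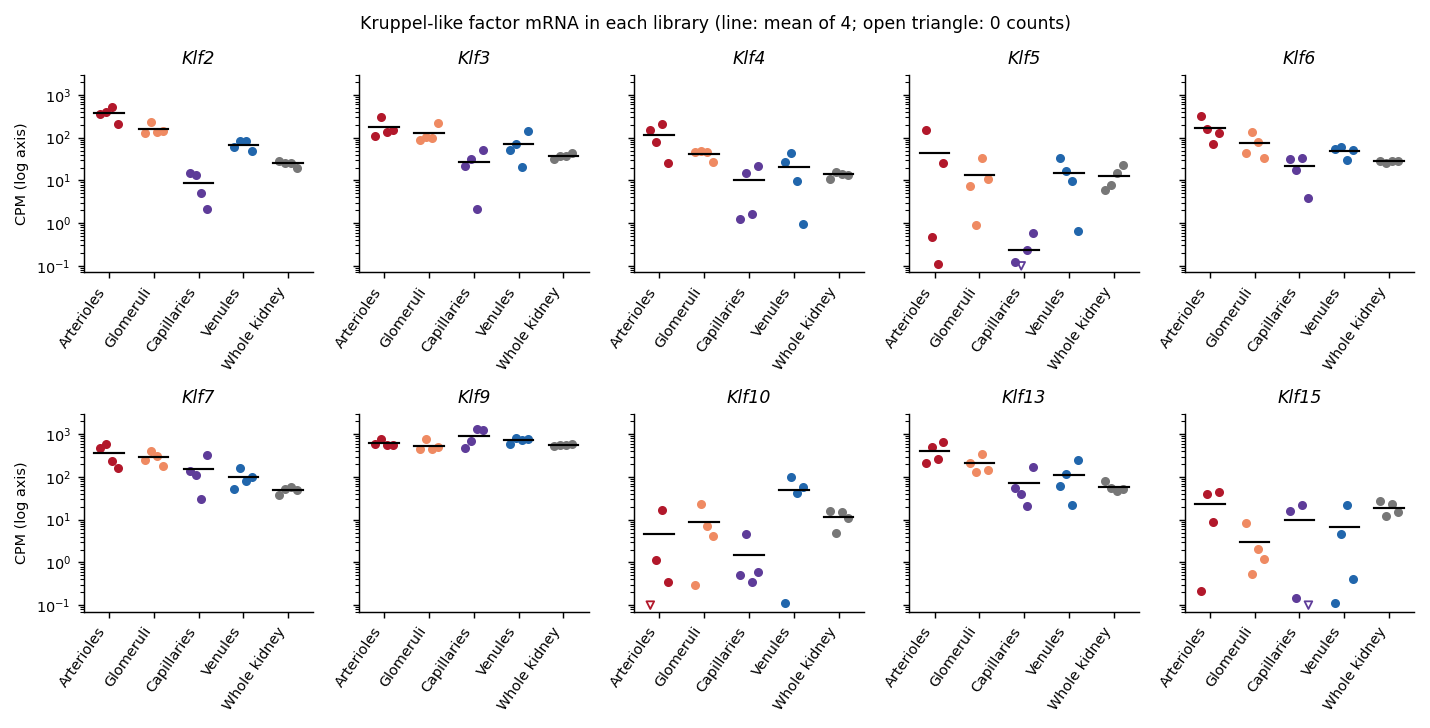
CPM (log axis) of the 10 Kruppel-like factors in each of the 20 libraries, by group, with the mean of 4 libraries as a line and libraries with 0 counts as open triangles. Klf2 falls from a mean of 369.7 CPM in arterioles to 8.68 CPM in peritubular capillaries, whereas Klf9 stays between 442 and 1302 CPM in all 20 libraries.

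Against whole kidney, Klf2 was 14.7-fold higher in arterioles (369.7 ± 129.6 against 25.2 ± 4.01 CPM, SD, n = 4, log2 fold change 3.88 ± 0.67 SE, adjusted p = 0.000105) and 6.35-fold higher in glomeruli (160.1 ± 47.8 CPM, log2 fold change 2.67 ± 0.64, adjusted p = 0.011). In such bulk tissue, more cells of a type and more RNA per cell cannot be told apart. The arteriole call was kept in all 8 fits without 1 library, but the glomerular call was lost without glomeruli 96 or without whole kidney 96, 98 or 100 (adjusted p up to 0.068). In venules Klf2 was at 68.3 ± 16.4 CPM (log2 fold change 1.44 ± 0.61, adjusted p = 0.409) and in capillaries at 8.68 ± 6.04 CPM (log2 fold change -1.53 ± 0.61, adjusted p = 0.298), and neither passed the test. With only the 8 libraries compared, the venule difference passed in edgeR (adjusted p = 0.0439).

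Among the compartments, Klf2 was 42.6-fold higher in arterioles than in peritubular capillaries (log2 fold change 5.41 ± 0.81, adjusted p = 9.4e-06) and 18.4-fold higher in glomeruli than in capillaries (4.21 ± 0.76, adjusted p = 0.000306), and leaving out any 1 library or changing the tool, scaling or filter ended neither call. It was also 5.41-fold higher in arterioles than in venules (log2 fold change 2.43 ± 0.70, adjusted p = 0.038), although this call was lost with the replicate block (adjusted p = 0.0539), without a filter (adjusted p = 0.0685) and without arterioles 93 or 98 or any 1 venule library (adjusted p up to 0.109). Venules exceeded capillaries 7.87-fold (capillaries against venules, log2 fold change -2.98 ± 0.72, adjusted p = 0.0485), and that call was lost without any 1 of the 8 libraries (adjusted p 0.060 to 0.188) and with RLE scaling, no filter or only those 8 (adjusted p up to 0.388), though the groups did not overlap. Arterioles against glomeruli (1.21 ± 0.68, adjusted p = 0.339) and glomeruli against venules (1.23 ± 0.68, adjusted p = 0.547) did not pass.

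Klf4, which shares targets with KLF2 in endothelium and is also made by other cells, followed the same order of means at lower levels and with wider spread. Arterioles 93, 96, 98 and 100 held 148, 77.7, 209 and 25.7 CPM, and the glomeruli 46.3, 48.3, 45.0 and 26.6 CPM. The capillaries held 1.24, 15, 1.63 and 22.0 CPM, the venules 26.9, 44.1, 9.60 and 0.934 CPM, and whole kidney 11, 16, 14.5 and 13.6 CPM. All arteriole and glomerular libraries lay above the whole kidney range, yet arterioles alone spanned 25.7 to 209 CPM. Against whole kidney, the log2 fold change in arterioles was 3.07 ± 1.17 (adjusted p = 0.0723) and in glomeruli 1.60 ± 1.11 (adjusted p = 0.612), and none of the 10 contrasts of Klf4 passed in the edgeR fit. DESeq2, the other tool run, put Klf4 past the threshold in arterioles against whole kidney (adjusted p = 0.00417), against capillaries (adjusted p = 0.00308) and against venules (adjusted p = 0.0478), and edgeR on only the 8 libraries compared did so for arterioles (adjusted p = 0.0142) and glomeruli (adjusted p = 0.0214) against whole kidney. With all 20 libraries in 1 fit, edgeR called Klf4 higher in arterioles than in capillaries (adjusted p = 0.0362).

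Because endothelial mRNA itself differed between compartments, both flow-responsive factors were also expressed per 100 counts of the pan-endothelial list. On that scale Klf2 was at 5.88 ± 2.71 for arterioles, 3.97 ± 1.51 for glomeruli, 4.29 ± 0.476 for venules and 4.18 ± 0.903 for whole kidney, but at 0.993 ± 0.750 for peritubular capillaries (SD, n = 4). The 4 capillary libraries gave 1.43, 1.80, 0.594 and 0.157, and every other library of the study 3.15 or more, so capillaries did not overlap any other group. Each of the 3 comparisons of capillaries with another compartment reached the smallest p that 4 against 4 libraries allow (exact two-sided permutation test, p = 0.0286, adjusted p = 0.114 over 12 tests of 2 genes and 6 pairs), so none passed after adjustment. Paired by mouse, capillaries were lower in 4 of 4 pairs in each of these comparisons, where 4 pairs cannot give an exact p below 0.125 (adjusted p = 0.375). Arterioles, glomeruli and venules overlapped (exact permutation p of 0.257 or more). With Pecam1 alone as the denominator, capillaries overlapped the other compartments (17.5 ± 13.3 against 32.6 ± 23.6 in arterioles, 50.1 ± 27.7 in glomeruli and 63.6 ± 41.9 in venules), the adjusted p rose to 0.343 or more, and arterioles fell below glomeruli and venules.

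Klf4 per 100 pan-endothelial counts was at 1.87 ± 1.56 in arterioles, 1.03 ± 0.295 in glomeruli, 0.997 ± 0.987 in capillaries and 1.22 ± 1.10 in venules, and all 6 pairs overlapped (exact permutation p 0.40 to 0.971). Whole kidney was at 2.25 ± 0.191. The spread within arterioles, from 0.481 to 3.96, exceeded the differences between the compartment means.

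**Figure D2:**
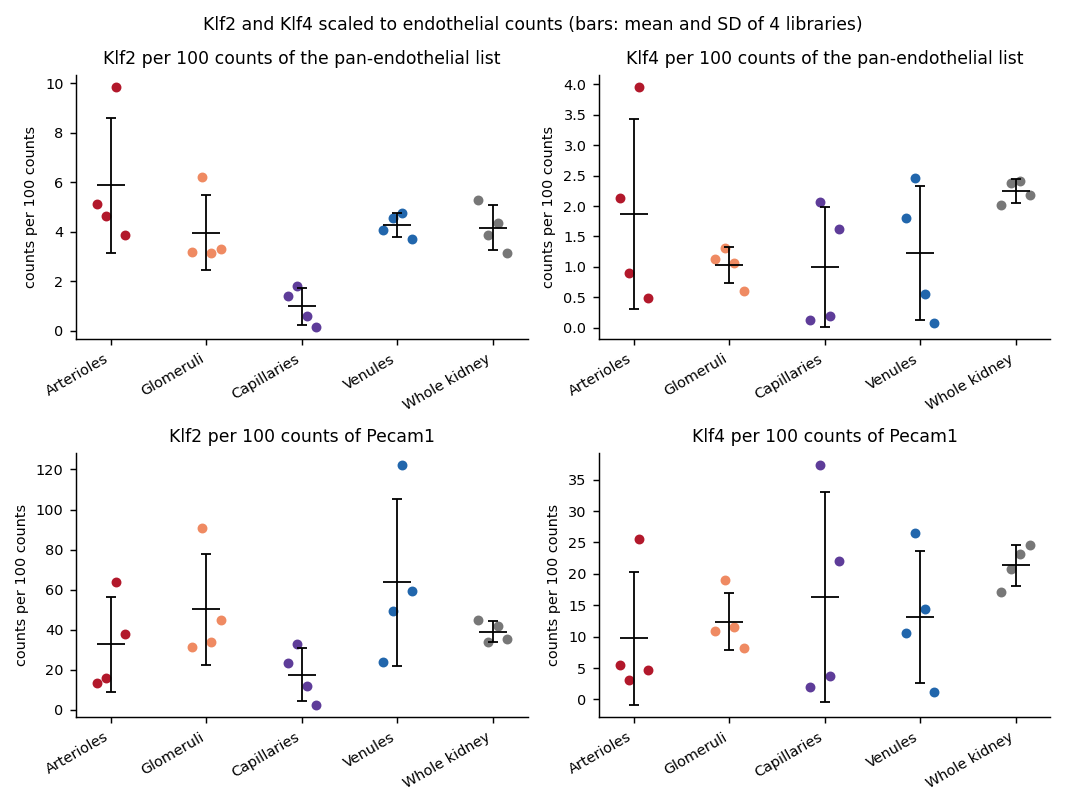
Klf2 (left) and Klf4 (right) counts per 100 counts of the pan-endothelial list (top) or of Pecam1 (bottom), 1 point per library with mean and SD of 4. Scaled to the list, Klf2 in capillaries (mean 0.993) lies below every other group, and scaled to Pecam1 the groups overlap.

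Klf13, a widely expressed member that acts in part through Sin3a, was the second of the 2 members to differ across the 4 compartments (adjusted p = 0.0473). Its level was 207, 508, 257 and 652 CPM in arterioles 93, 96, 98 and 100, and 215, 132, 340.1 and 143 CPM in glomeruli. Capillaries had 56.3, 39.3, 20.5 and 172 CPM, venules 59.9, 117, 22.5 and 246 CPM, and whole kidney 81.1, 55.3, 45.9 and 51.3 CPM. Arterioles and glomeruli all lay above whole kidney, and capillaries 100 and venules 100 stood well above the others of their groups. Klf13 was 6.95-fold higher in arterioles than in whole kidney (406.2 ± 210.5 against 58.4 ± 15.6 CPM, log2 fold change 2.80 ± 0.68, adjusted p = 0.00579) and 5.63-fold higher than in capillaries (2.50 ± 0.73, adjusted p = 0.021). The whole kidney call was kept without each of 8 libraries, the capillary call was lost without arterioles 100 or capillaries 93, 96 or 98 (adjusted p up to 0.0729) and with only the 8 libraries compared (adjusted p = 0.057), and the call across all 4 compartments was lost without 12 of the 16 libraries (adjusted p up to 0.136). Glomeruli against whole kidney passed with independent filtering (adjusted p = 0.0449) and with only the 8 libraries compared (adjusted p = 0.00356). DESeq2 called arterioles above venules (adjusted p = 0.0466).

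Klf7 gave its highest levels in arterioles and glomeruli. It was counted at 486, 576, 234 and 164 CPM in arterioles and at 251, 408, 303 and 181 CPM in glomeruli 93, 96, 98 and 100. Capillaries gave 139, 113, 30.003 and 319.6 CPM, venules 51.1, 162, 82.2 and 97.6 CPM, and whole kidney 38.686, 51.6, 57.8 and 50.3 CPM. Both arterioles and glomeruli cleared the whole kidney range, whereas capillaries straddled it. Klf7 was 7.36-fold higher in arterioles (365.2 ± 197.5 against 49.6 ± 7.97 CPM, log2 fold change 2.88 ± 0.61, adjusted p = 0.00154) and 5.77-fold higher in glomeruli (286.0 ± 95.3 CPM, 2.53 ± 0.61, adjusted p = 0.0115) than in whole kidney. The glomerular call was lost without glomeruli 96 or whole kidney 93, 96 or 100 (adjusted p up to 0.0674), the arteriole call under none of these omissions. No contrast between compartments passed for Klf7 in edgeR as fitted here (lowest adjusted p 0.0793, arterioles against venules, where the groups did not overlap). That comparison was called by DESeq2 (adjusted p = 0.0224) and with all 20 libraries in 1 fit (adjusted p = 0.0384), and glomeruli against venules with only the 8 libraries compared (adjusted p = 0.0344).

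Klf6, the injury-response member, was at 317, 161, 69.6 and 131 CPM in arterioles, 44.9, 135, 79.7 and 34.2 CPM in glomeruli and 53.3, 60.2, 29.9 and 51.5 CPM in venules. Capillaries were at 32.1, 17.5, 32.7 and 3.9 CPM, and whole kidney kept within 25.4 to 28.9 CPM. Arterioles, glomeruli and venules all stood above whole kidney, and capillaries lay on both sides of it. Klf6 was 6.10-fold higher in arterioles than in whole kidney (log2 fold change 2.61 ± 0.84, adjusted p = 0.0386) and 7.88-fold higher than in capillaries (2.99 ± 0.96, adjusted p = 0.0381). With the replicate block neither passed (adjusted p = 0.0595 and 0.0645). The first was also lost with independent filtering (adjusted p = 0.0563), without a filter (adjusted p = 0.0966) and without arterioles 93 or any 1 whole kidney library (adjusted p up to 0.105). The second was lost without arterioles 93 or any 1 capillary library (adjusted p up to 0.117) and without a filter or with only the 8 libraries compared (adjusted p up to 0.14), while DESeq2 added a call of arterioles above venules (adjusted p = 0.027).

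Klf3, the CtBP-recruiting repressor, was at 109.9, 307, 137 and 151 CPM in arterioles and 90.3, 101, 95.7 and 216 CPM in glomeruli, against 32.1 to 44.4 CPM in whole kidney. Capillaries ranged from 2.09 to 51.5 CPM and venules from 20.9 to 142 CPM. Arterioles and glomeruli did not overlap whole kidney or capillaries. In edgeR as fitted here, arterioles against capillaries was the contrast that passed (6.61-fold, log2 fold change 2.73 ± 0.90, adjusted p = 0.0435), and this call was lost without arterioles 96 or capillaries 93, 96 or 98 (adjusted p up to 0.104), without a filter (adjusted p = 0.0588) and with only the 8 libraries compared (adjusted p = 0.19). Arterioles against whole kidney came to 2.21 ± 0.79 (adjusted p = 0.0583), but passed by DESeq2 (adjusted p = 0.00619), with RLE scaling (adjusted p = 0.0417) and with only the 8 libraries compared (adjusted p = 0.00908). Glomeruli against whole kidney passed with only the 8 libraries compared (adjusted p = 0.0049).

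Klf5, of epithelium and injured smooth muscle, was present in some libraries of a group and nearly absent from others. Arterioles held 149, 0.481, 0.112 and 26.0 CPM, of which 0.481 and 0.112 CPM stood for 3 and 1 counts. Glomeruli ran from 0.880 to 33.9 CPM, venules from 0.667 to 32.9 CPM and whole kidney from 5.86 to 22.4 CPM, while all 4 capillary libraries held 3 counts or fewer. The call of arterioles above capillaries (adjusted p = 0.0351) therefore rested on arterioles 93 and 100. The groups overlapped, and the call was lost with the replicate block or only the 8 libraries compared (adjusted p up to 0.0925). It was also lost without arterioles 93 or any 1 capillary library (adjusted p up to 0.146). Every glomerular, venule and whole kidney library was above every capillary library, yet none of those comparisons passed in edgeR as fitted here (capillaries against whole kidney, adjusted p = 0.266). With only the 8 libraries compared, edgeR called capillaries below whole kidney (adjusted p = 0.025), and DESeq2 called all of those comparisons (adjusted p 0.00507 to 0.00707).

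Klf10, the TGF-β-inducible member, was the one whose mean was highest in venules. Venules 93, 96, 98 and 100 had 0.112, 101, 42.3 and 57.9 CPM, so that 3 of the 4 stood above all other libraries of the study and the fourth held a single count. Arterioles ranged from 0 to 17 CPM, glomeruli from 0.299 to 23.1 CPM, capillaries from 0.349 to 4.56 CPM and whole kidney from 4.94 to 16.1 CPM. All capillary libraries were below all whole kidney libraries. No contrast of Klf10 passed in edgeR (capillaries against venules, unadjusted p = 0.0259, adjusted p = 0.353), and DESeq2 called capillaries below venules (adjusted p = 0.0237). Erythrocyte markers were also at their highest in venules, and their part in the Klf10 values was not tested.

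Klf15, a glucocorticoid-induced metabolic regulator, had whole kidney levels of 12.1 to 26.8 CPM and none of its 10 contrasts passed (lowest adjusted p 0.51). Its arterioles ranged from 0.212 to 43.9 CPM, its glomeruli from 0.550 to 8.57 CPM, its capillaries from 0 to 22.6 CPM and its venules from 0.112 to 22.3 CPM. All 4 glomerular libraries lay below all 4 whole kidney libraries (log2 fold change -2.63 ± 1.83, adjusted p = 0.613).

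Klf9, a glucocorticoid-induced repressor, was the most abundant member in 19 of the 20 libraries, the exception being arterioles 100, where Klf13 was higher. Its mean was 930.0 ± 420.0 CPM for capillaries, 726.7 ± 97.6 for venules, 620.6 ± 100.7 for arterioles, 539.9 ± 157.6 for glomeruli and 563.5 ± 27.5 for whole kidney (SD, n = 4). The capillary libraries split into 469 and 679.8 CPM for 93 and 96 and 1302 and 1270.0 CPM for 98 and 100. All 10 pairs of groups overlapped, and no contrast of Klf9 passed (lowest adjusted p 0.307, log2 fold changes from -0.78 to 0.72 with SE of 0.34 to 0.40).

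The 10 members are a part of the family and were chosen with earlier results of these data known. Of them, 4 were called higher in arterioles than in whole kidney (Klf2, Klf6, Klf7 and Klf13), against 5.78% of the 13813 genes tested. Of the 9 other KLF and SP genes tested, 0 were called higher and 1 lower in arterioles. The 1 called lower, Klf1, passed the count filter only through whole kidney. Glomeruli had 2 members higher (Klf2 and Klf7), against 1.59% of genes. A call here means an adjusted p under 0.05 and a log2 fold change past 1. In capillaries and venules edgeR called 0 members, with 4 and 1 members at an unadjusted p under 0.05, and DESeq2 called 1 and 0. Over all genes, 0.0869% were called higher and 0.00724% lower in capillaries, and 0.203% higher and 0.0217% lower in venules. The median log2 fold change of the 10 members was 2.41 in arterioles, 1.5 in glomeruli, -0.49 in capillaries and 0.86 in venules, beside 0.22, 0.25, 0.18 and 0.19 over all genes tested. The 4 comparisons share the same whole kidney libraries.

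**Figure D3:**
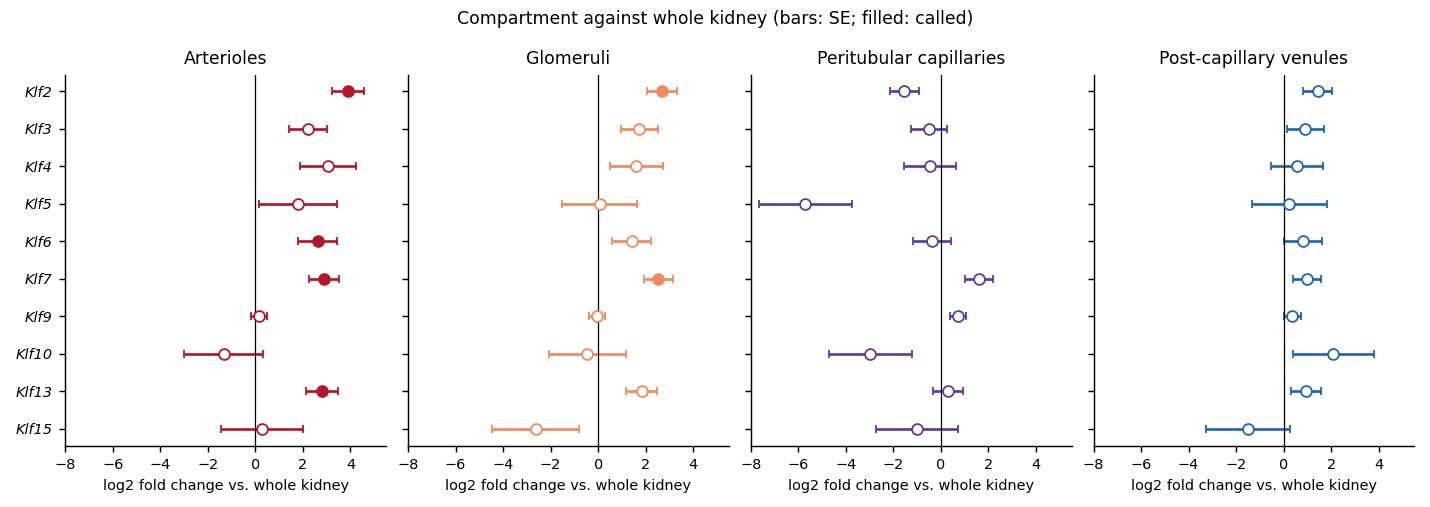
Log2 fold change of each member against whole kidney, by compartment, with SE bars and filled points for calls. In arterioles 9 of 10 estimates are above 0 and 4 are called, and in peritubular capillaries 7 of 10 are below 0 and none is called.

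Between compartments, where a call needs only an adjusted p under 0.05, 5 members were higher in arterioles than in capillaries (Klf2, Klf3, Klf5, Klf6 and Klf13, against 6.22% of 12179 genes). With the replicate block 3 of them remained (Klf2, Klf3 and Klf13). Klf2 alone was called higher in arterioles than in venules (2.5% of genes), higher in glomeruli than in capillaries (2.2%) and lower in capillaries than in venules (0.328%). Across the 4 compartments at once, 2 of 10 members were called, beside 11.4% of all genes. Arterioles against glomeruli and glomeruli against venules gave 0 calls in edgeR and 0 in DESeq2, with 0 and 1 members at an unadjusted p under 0.05. Of all genes, 1.33% were called higher and 0.862% lower in the first comparison and 0.493% higher and 0.731% lower in the second. Proximal tubule markers were at their highest in the capillary libraries, endothelial markers at their lowest of the 4 compartments and smooth muscle markers at their highest in arterioles. Beyond the ratios to endothelial counts given above, the part these shares played was not tested. The part of the separately stained capillary slide was not tested either.

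In order of group means of TMM-scaled CPM, 8 members were highest in arterioles, Klf9 in capillaries and Klf10 in venules, while 6 members were lowest in capillaries. The share of all genes highest in arterioles was not computed. By plain library totals Klf3 and Klf7 were instead highest in glomeruli (159 and 366 CPM, against 131 and 268 in arterioles). Klf15 was then highest in whole kidney (23.0 CPM, against 17.4 in arterioles). None of the 40 pairs of groups next to each other in a member's TMM-scaled order differed by the test. Libraries of 1 compartment also varied more than those of whole kidney. The coefficient of variation of the members had a median of 58.1% in arterioles, 47.1% in glomeruli, 88.1% in capillaries and 77.4% in venules, against 16% in whole kidney.

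Summed, the 10 members stood at 2295 ± 406 CPM in arterioles, 1459 ± 285 in glomeruli, 1231 ± 497 in capillaries, 1218 ± 269 in venules and 820.1 ± 27.6 in whole kidney. Klf9 made up 27.1% ± 1.46 of that sum in arterioles (25.2% to 28.8%) and 36.8% ± 5.15 in glomeruli (29.9% to 41.7%). In capillaries it made up 74.4% ± 12.6, in venules 60.7% ± 7.25 and in whole kidney 68.7% ± 1.78. The lowest share in capillaries, venules and whole kidney was 53.8%, so these groups did not overlap arterioles or glomeruli. The share does not depend on the scaling of library totals, but the sums do. By plain library totals the sum was higher in glomeruli than in arterioles, with Klf9 at 686 against 483 CPM and Klf7 at 366 against 268. Klf2 (204 against 300 CPM) and Klf13 (268 against 317 CPM) stayed higher in arterioles.

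**Figure D4:**
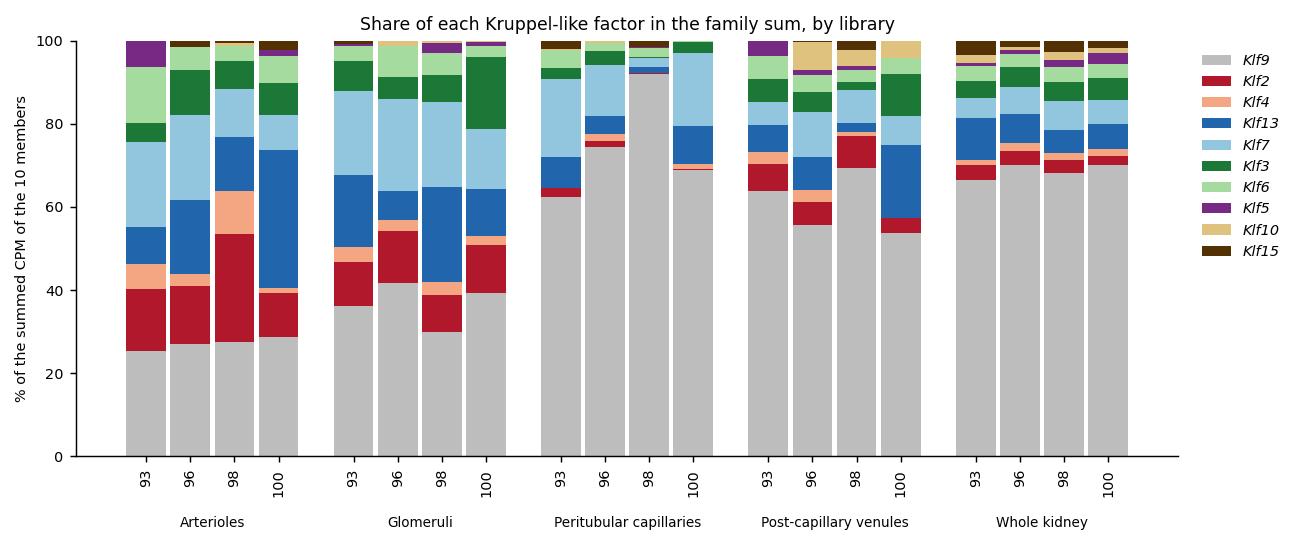
Share of each member in the summed CPM of the 10 members, 1 bar per library, grouped by compartment. Klf9 (grey) takes 25.2% to 41.7% in arterioles and glomeruli and 53.8% to 91.9% elsewhere.

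The other KLF and SP genes of the table numbered 16, of which 9 had enough reads to be tested against whole kidney. Sp1 and Sp3, the ubiquitous relatives that bind the same GC boxes, were counted in all 20 libraries, and Klf14 and Sp8 in none. The erythroid factor Klf1 was the single gene called in arterioles against whole kidney: it had 0 counts in every arteriole and glomerular library and 1.61 ± 0.447 CPM in whole kidney (adjusted p = 0.0487). Klf1 passed the count filter only through whole kidney and had too few reads to be tested between compartments. A call of lower in arterioles was therefore the direction open to it, and is no evidence about the family. That call was lost without any 1 of the 8 libraries compared and in DESeq2, with RLE scaling or without a filter (adjusted p 0.0528 to 0.17). The median log2 fold change of the 9 genes was -0.56 in arterioles, beside 0.22 over all genes.

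Genes acting upstream of KLF2 and KLF4 in endothelium (flow sensors, the ERK5 cascade, MEF2 factors and the cerebral cavernous malformation complex) had 5 of 16 called higher in arterioles and 3 of 16 in glomeruli than in whole kidney, with median log2 fold changes of 1.95 and 1.29. Over all genes tested, 5.78% and 1.59% were called higher, with medians of 0.22 and 0.25. The pan-endothelial list had 12 of 19 and 9 of 19 called higher, with medians of 3.60 and 2.51. In capillaries 0 of 16 were called by edgeR or DESeq2 (2 at an unadjusted p under 0.05) and in venules 1 of 16. The shares of all genes called higher there were 0.0869% and 0.203%. Heg1, the transmembrane partner of that complex, was at 1006 ± 400.3 CPM in arterioles, 215 ± 46.8 in glomeruli and 130.5 ± 59.9 in venules, while whole kidney had 23.8 ± 2.76 and capillaries 12.1 ± 9.93 CPM (arterioles against capillaries, log2 fold change 6.39, adjusted p = 1.09e-08). Mef2c, which encodes a MEF2 factor, was at 449.5 ± 128, 116 ± 45.5, 53.2 ± 17.03, 28.2 ± 6.60 and 22.9 ± 16.1 CPM in the same order of groups (arterioles against whole kidney 4.00, adjusted p = 7.91e-05). By TMM-scaled CPM both therefore ranked the 5 groups as Klf2 did, and so did Klf4 and Klf6. Klf3 did so too, but by plain library totals Klf3 was highest in glomeruli. Pecam1, of the pan-endothelial list, also had the order of Klf2, with 143 CPM in venules, 64.9 in whole kidney and 61.1 in capillaries. The order was thus not particular to Heg1 and Mef2c.

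Within the same list, Pecam1, part of the junctional flow sensor, was at 1651 ± 1126 CPM in arterioles and 348 ± 74.8 in glomeruli (arterioles against whole kidney 4.67, adjusted p = 8.03e-08). Kdr, the VEGF receptor 2 gene, ran the other way: glomeruli held 1254 ± 263 CPM and arterioles 58.1 ± 66.4 CPM (arterioles against glomeruli, log2 fold change -4.43, adjusted p = 0.000391). Pecam1, Kdr and Cdh5 of this list also belong to the pan-endothelial list. All 4 calls were kept without each library in turn.

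Of 14 genes known to be induced by KLF2 or KLF4 in endothelium, 5 were higher in arterioles and 2 in glomeruli than in whole kidney, and the medians were 2.58 and 1.74. The shares over all genes were 5.78% and 1.59%, and the medians of the pan-endothelial list, 3.60 and 2.51, were higher. Nos3, endothelial nitric oxide synthase, was at 461 ± 43.5 CPM in arterioles against 6.04 ± 1.54 in whole kidney (log2 fold change 6.26, adjusted p = 6.15e-05). Gja4, a gap junction gene, was at 816 ± 327 against 7.87 ± 1.81 CPM (6.70, adjusted p = 7.02e-05), and Tie1, an endothelial receptor that is also in the pan-endothelial list, at 301 ± 217 against 20.3 ± 4.48 CPM (3.89, adjusted p = 0.00306). Timp3, an inhibitor of matrix metalloproteinases, departed from Klf2 by being highest in capillaries (4443 ± 1105 CPM, against 1334 ± 106 in whole kidney, 1.74, adjusted p = 0.000114). These 4 calls too were kept without each library in turn.

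Genes known to be repressed by KLF2 or KLF4 in endothelium did not run opposite to Klf2: 3 of 10 were called higher and none lower in arterioles than in whole kidney, with a median of 2.66. Over all genes 5.78% were called higher and 5.5% lower, and the pan-endothelial median was 3.60. Edn1, the endothelin precursor, was at 111 ± 106 CPM in arterioles and 0.578 ± 0.435 in capillaries (log2 fold change 7.55, adjusted p = 0.00823), a call kept without each library in turn. Vcam1, a leukocyte adhesion molecule, was at 173 ± 135 CPM in arterioles against 14.8 ± 2.39 in whole kidney (3.55, adjusted p = 0.0161, lost without arterioles 98 or any 1 whole kidney library). Selp, which encodes P-selectin, was at 46.8 ± 76.0 CPM in arterioles and 0.392 ± 0.193 in whole kidney (adjusted p = 0.0337). Angpt2, known as an antagonist of the Tie2 receptor, was at 58.8 ± 117 CPM in arterioles and 0.243 ± 0.229 in capillaries (adjusted p = 0.0357). In both, the SD exceeded the arteriole mean. The Selp call was lost without arterioles 96 or any 1 whole kidney library (adjusted p up to 0.144), without a filter (adjusted p = 0.0567) and with the replicate block (adjusted p = 0.0878). The Angpt2 call was lost without arterioles 96 or any 1 capillary library (adjusted p up to 0.944) and with the block (adjusted p = 0.513).

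**Figure D5:**
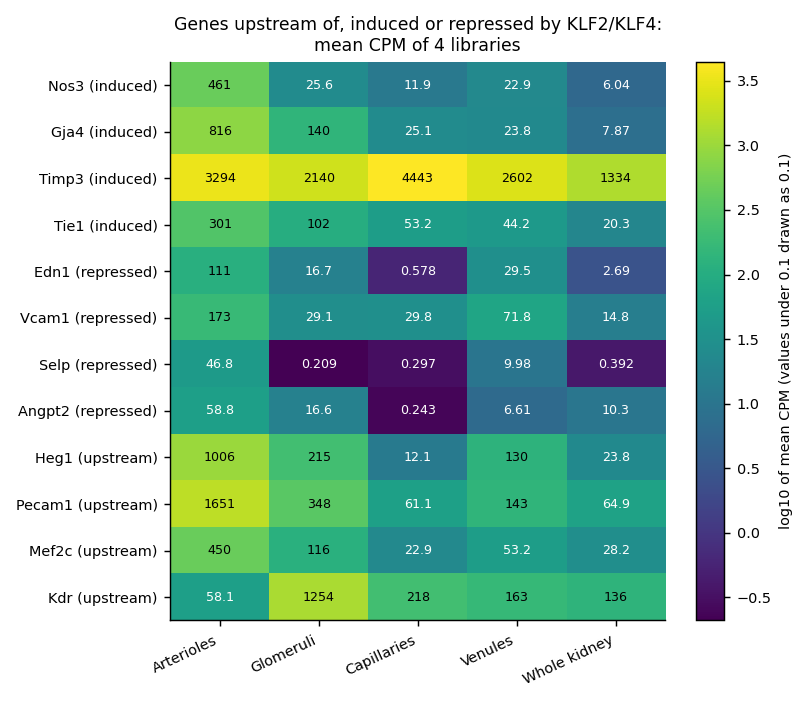
Mean CPM of 4 libraries (numbers, with colour on a log10 scale) for genes upstream of, induced by or repressed by KLF2 or KLF4. The genes shown are those of each list with the smallest p among the called. Over the whole lists, the highest mean is in arterioles for 11 of 16 upstream, 10 of 14 induced and 9 of 10 repressed genes tested. The same holds for 11 of 17 immediate early genes, 8 of 14 corepressors and partners and 8 of 19 glucocorticoid and circadian genes. For the other KLF and SP genes it is 2 of 9. The share over all genes was not computed.

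Glucocorticoid and circadian genes, the setting of Klf9, Klf13 and Klf15, gave 1 call in all comparisons by edgeR. Cry2, a clock repressor, was at 0.294 ± 0.293 CPM in arterioles and 32.8 ± 55.5 CPM in capillaries (adjusted p = 0.0318). This call was lost with the replicate block (adjusted p = 0.131), without a filter (adjusted p = 0.055) and without capillaries 98 or arterioles 93, 98 or 100. Against whole kidney, edgeR called 0 of 19 in each compartment, with 0 to 4 at an unadjusted p under 0.05, and DESeq2 called 0 to 2. Between pairs of compartments DESeq2 called 1 to 4 of 16, the most in arterioles against glomeruli, and 4 of 16 across the 4 compartments. For arterioles against glomeruli 4 of 17 had an unadjusted p under 0.05 in edgeR, beside 2319 of all 12179 genes tested. Immediate early genes, which can rise during tissue handling, had 1 of 16 called between arterioles and capillaries: Jun, at 166 ± 116 against 11.2 ± 4.42 CPM (3.89, adjusted p = 0.00559, lost with only the 8 libraries compared, adjusted p = 0.0594). That share is close to the 6.22% of all genes called higher in this comparison. Their median log2 fold change against whole kidney was 1.69 in arterioles and -0.46 in capillaries, which moved with Klf2, Klf4 and Klf6, and its part in their values was not tested.

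Among KLF corepressors and partners, 2 of 14 were higher in arterioles than in whole kidney, against 5.78% of all genes. Crebbp, a coactivating acetyltransferase, was at 371 ± 317 against 91.9 ± 22.5 CPM (2.02, adjusted p = 0.0228, lost without arterioles 96 or any 1 whole kidney library). Myocd, the smooth muscle coactivator myocardin, was at 55.6 ± 44.9 CPM in arterioles and 0.0582 ± 0.0673 in venules (adjusted p = 0.0198, lost without any 1 venule library).

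Over the 16 microdissected libraries, the genes whose log2 CPM followed Klf2 most closely were Ifitm3 (Pearson r = 0.95), Crip2 (0.94) and Axl (0.94), out of 11274 genes compared. For Klf4 they were S100a4 (0.88), Plekha2 (0.87) and Slc9a3r2 (0.86), for Klf13 Myo1c (0.90), Mical2 (0.88) and Gnai2 (0.85), and for Klf7 Myo1d (0.90), Gnai2 (0.85) and Map4k4 (0.84). Klf3 went with Bnip2 (0.93), Gata3 (0.91) and Ptprb (0.91), and Klf6 with Ckb (0.93), Trim47 (0.93) and Qsox1 (0.92). Klf5 (Ubr7, Adamtsl4 and Zfp715), Klf9 (Snx25, Cox7b and Cox5b), Klf10 (Zbtb33, Pdcd7 and Fam71e1) and Klf15 (Rpn1, Cyp2u1 and Bmf) had nearest genes at 0.79 to 0.88. Libraries of a compartment share its cell makeup, and after the compartment means were taken out the 3 values for Klf2 were 0.45 to 0.55. Those of the other members ran from 0.64 (Klf13 with Gnai2) to 0.88 (Klf3 with Bnip2). These genes were picked as the closest of 11274 on the same 16 libraries, which favours high values here too. Klf5, Klf10 and Klf15 also had libraries at 3 counts or fewer.

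Between members, the closest pairs over these 16 libraries were Klf3 with Klf13 (r = 0.85, and 0.73 within compartments) and Klf2 with Klf6 (0.83 and 0.46). Klf2 and Klf4 gave 0.67, and 0.06 within compartments. Klf9 ran against Klf2 (-0.57, and -0.48 within compartments). These are descriptions over libraries that share groups and depth.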

How the data were processed

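Gene counts were used as the authors deposited them: per the study's methods, QuantSeq 3′ FWD reads were trimmed with bbduk, aligned with STAR 2.7 to GRCm38.p6 and counted per Ensembl gene with HTSeq 0.13. The submitters' processing notes also name GRCm39 and featureCounts, with no role given, so which counter assigned reads of overlapping genes is uncertain. Whether counting used strand or molecular identifiers is not stated in those sources. The table's other 148 columns of per-sample values were not used. Library totals ran from 4639090 to 12283098 counts, and no pair of libraries held identical values.

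Counts were tested with edgeR 4.0.16 in R 4.3.3 (TMM scaling, filterByExpr, quasi-likelihood F test, Benjamini-Hochberg adjustment over all genes tested). The 20 libraries were fitted together against whole kidney (13813 genes), and the 16 microdissected libraries between compartments (12179 genes). A call against whole kidney needed an adjusted p under 0.05 and a log2 fold change past 1, and between compartments an adjusted p under 0.05. Adjusted p-values in the text are from edgeR unless DESeq2 1.42.0 is named. Ratios to endothelial counts were compared by exact two-sided permutation tests. The scripts were tested on simulated counts.

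Alternatives were DESeq2, RLE scaling, no filter, independent filtering, a replicate block, fits of only the 8 libraries compared or of all 20, and leaving out each library. Mean levels of the members were also taken by plain library totals. A count of 3 or fewer in a library was taken as the floor. The members and gene lists were chosen with earlier results of these data known. All members are named, from each pathway list up to 4 called genes with the smallest p, and for each member the 3 genes of highest Pearson correlation over the 16 microdissected libraries (log2 CPM, prior count 2; members, predicted genes, pseudogenes and mitochondrially encoded genes left out). Replicates are biological according to the labels. The study collected segments per mouse, and the numbers in the column names recur in all 5 groups, so they were taken to pair the libraries, although no source equates number and mouse. Same-numbered libraries showed little shared deviation (correlation over 0.1 in 0 of 40 pairs), and 10 of 20 libraries correlated best with 1 of their own number. Annotation came from GENCODE M21 (34193 of 34255 IDs matched) and promoters from RefSeq.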

Additional observations from a re-analysis of the deposited data

Results flagged for a closer look

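In 7 of 50 groups of 4 libraries (10 members in 5 groups), 1 library stood apart by Dixon's ratio, which is its gap to the nearest other library over the range of the group. Independent, normally distributed values would give about 1 such group in 20. Levels near the floor are skewed and the 50 groups share the same 20 libraries, so that rate need not hold here. Of the 4 in glomeruli, Klf2 was high in glomeruli 96 (231 CPM, others 132 to 145, ratio 0.869) and so was Klf9 (774 CPM, others 442 to 494, ratio 0.846). In glomeruli 100, Klf3 was high (216 CPM, others 90.3 to 101, ratio 0.916) and Klf4 low (26.6 CPM, others 45.0 to 48.3, ratio 0.850). Klf10 was high in arterioles 98 (17 CPM, others 0 to 1.12, ratio 0.934) and in capillaries 96 (4.56 CPM, others 0.349 to 0.585, ratio 0.944). Klf6 was low in whole kidney 96 (25.4 CPM, others 28.3 to 28.9, ratio 0.842).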

How the results depend on the processing

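No direction of a called member reversed. The calls of Klf2, Klf7 and Klf13 in arterioles against whole kidney, and of Klf2 in arterioles and in glomeruli against capillaries and across the 4 compartments, were kept under all alternatives run. Counts of members called did change. With only the 8 libraries compared, they were 5 for glomeruli against whole kidney, 1 each for capillaries and venules against whole kidney, 1 for arterioles against capillaries, 1 for glomeruli against venules and 0 for capillaries against venules. With DESeq2 they were 1 for capillaries against whole kidney, 5 for arterioles against venules, 2 for glomeruli against capillaries, 3 for capillaries against venules and 7 across the 4 compartments. Without a filter they were 3 for arterioles against capillaries and 0 for arterioles and for capillaries against venules. RLE scaling gave 0 for capillaries against venules, and all 20 libraries in 1 fit gave 2 for arterioles against venules. Without 1 library, counts ran from 0 to 2 for glomeruli against whole kidney, 1 to 5 for arterioles against capillaries, 0 to 1 for arterioles against venules, 0 to 0 for capillaries against venules and 1 to 3 across the 4 compartments. The log2 ratio of Klf4 per endothelial count ran from -0.33 to 0.67 for glomeruli against capillaries and from -0.65 to 0.34 for glomeruli against venules. The causes were not tested.

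With the column number as a replicate block, the members called were 3 for arterioles against whole kidney (without Klf6), 3 for arterioles against capillaries and 0 for arterioles against venules, and the block changed no other call of a member. For arterioles against whole kidney, counts over all alternatives ran from 3 to 6. Pairing the ratios to endothelial counts, an alternative chosen after seeing the data, left none of the 12 tests under 0.05 (lowest adjusted p 0.375).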
